A study of Mus musculus with 15 samples.

Results

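Fatty acid oxidation was followed through 32 genes in mouse adipose tissue with and without the cytokine IL-33. Of these genes, 20 encode mitochondrial and 12 encode peroxisomal enzymes, transporters or membrane proteins. They were chosen by symbol, as the rows of the count table whose Ensembl identifier matched a listed name. All 32 were found among the 37991 identifiers, and all 32 held enough counts to be tested in each comparison. Messenger RNA of whole tissue from C57BL/6 mice was sequenced in 4 groups. Inguinal white adipose tissue, a depot under the skin that can hold heat-producing beige adipocytes, came from mice at postnatal day 24. It gave 3 IL-33-/- (KO) libraries, numbered 2 to 4, and 4 wild-type (WT) libraries. Brown adipose tissue, which burns fat to make heat, came from newborns at postnatal day 0.5 and gave 4 libraries labelled IL-33-/- and 4 WT libraries. Depot and age changed together and cannot be told apart. The sources used here do not say whether each library is a separate animal, so p-values measure only how far these libraries spread, which may be technical. In whole tissue, fewer cells of a type and less RNA per cell cannot be told apart either.

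Long-chain fatty acids cross into mitochondria as carnitine esters, which carnitine palmitoyltransferase 1 (CPT1) makes at the outer membrane and CPT2 turns back into acyl-CoA inside. Each round of β-oxidation then uses an acyl-CoA dehydrogenase, a hydratase, a hydroxyacyl-CoA dehydrogenase and a thiolase, and releases acetyl-CoA. The electrons pass to the respiratory chain through electron transfer flavoprotein (ETF) and its oxidoreductase. Peroxisomes shorten very long and branched chains with enzymes of their own. In brown and beige adipocytes, fatty acid oxidation feeds the heat production carried out by the uncoupling protein UCP1.

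Total counts per library were 30835337 to 38765633 in inguinal KO, 26059635 to 53923009 in inguinal WT, 33782634 to 40802095 in brown labelled KO and 31661512 to 41926108 in brown WT tissue. Levels are CPM values, counts scaled to library depth, after 1 scaling of all 15 libraries. Il33, the targeted gene, had 10, 14 and 3 counts in inguinal KO libraries, against 100 to 198 in inguinal WT libraries (log2 change -3.73, edgeR adjusted p = 1.25e-05). In brown tissue it had 15 to 56 counts in labelled KO libraries, against 67 to 107 in WT libraries, a log2 change of -1.08 that did not pass (edgeR adjusted p = 0.229). The brown group is therefore called labelled KO. The sources used here do not say which stretch of Il33 was deleted, which limits what counts over the whole gene can show. Brown labelled KO library 1 stood apart from the other labelled KO libraries. On the main axis of variation, which held 39.6% of the brown variance, it scored -38.1, against 24.7 to 58.8 in labelled KO libraries 2 to 4 and -29.0 to -21.1 in WT libraries. Its counts differed from theirs by a chi-square per degree of freedom of 149 to 217. Brown WT libraries were closer in pairs. The same measure was 23.9 between WT libraries 1 and 2, 18.2 between 3 and 4, and 70.7 to 91.5 across these pairs. General adipocyte markers summed to 34180 to 37460 CPM in inguinal KO, 35990 to 37160 in inguinal WT, 14430 to 18590 in brown labelled KO and 15860 to 18910 CPM in brown WT libraries, with no marker at 0.

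Most fatty acid oxidation genes were higher in inguinal KO tissue, among them 18 of the 20 mitochondrial ones. In the edgeR quasi-likelihood test with a Benjamini-Hochberg adjusted p below 0.05, which is what passing or a call means here, 23 of the 32 rose and 1, Cpt1a, fell. Over all 15710 genes tested, 15.3% were called higher and 13.3% lower. The median log2 change was 0.44 for the 32 genes and -0.02 for all genes. The 8 genes that did not pass were Etfb of the mitochondrial set and Acaa1a, Ehhadh, Eci2, Decr2, Pex11a, Abcd2 and Slc27a2 of the peroxisomal set. In 24 of the 32, the 23 and Pex11a, every KO library lay above every WT library, a pattern that 18.3% of all genes showed. In Cpt1a every KO library lay below every WT library, as in 18.5% of all genes. The 32 genes took 1.76% to 1.91% of all counts in KO libraries, against 1.19% to 1.40% in WT libraries.

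**Figure D1:**
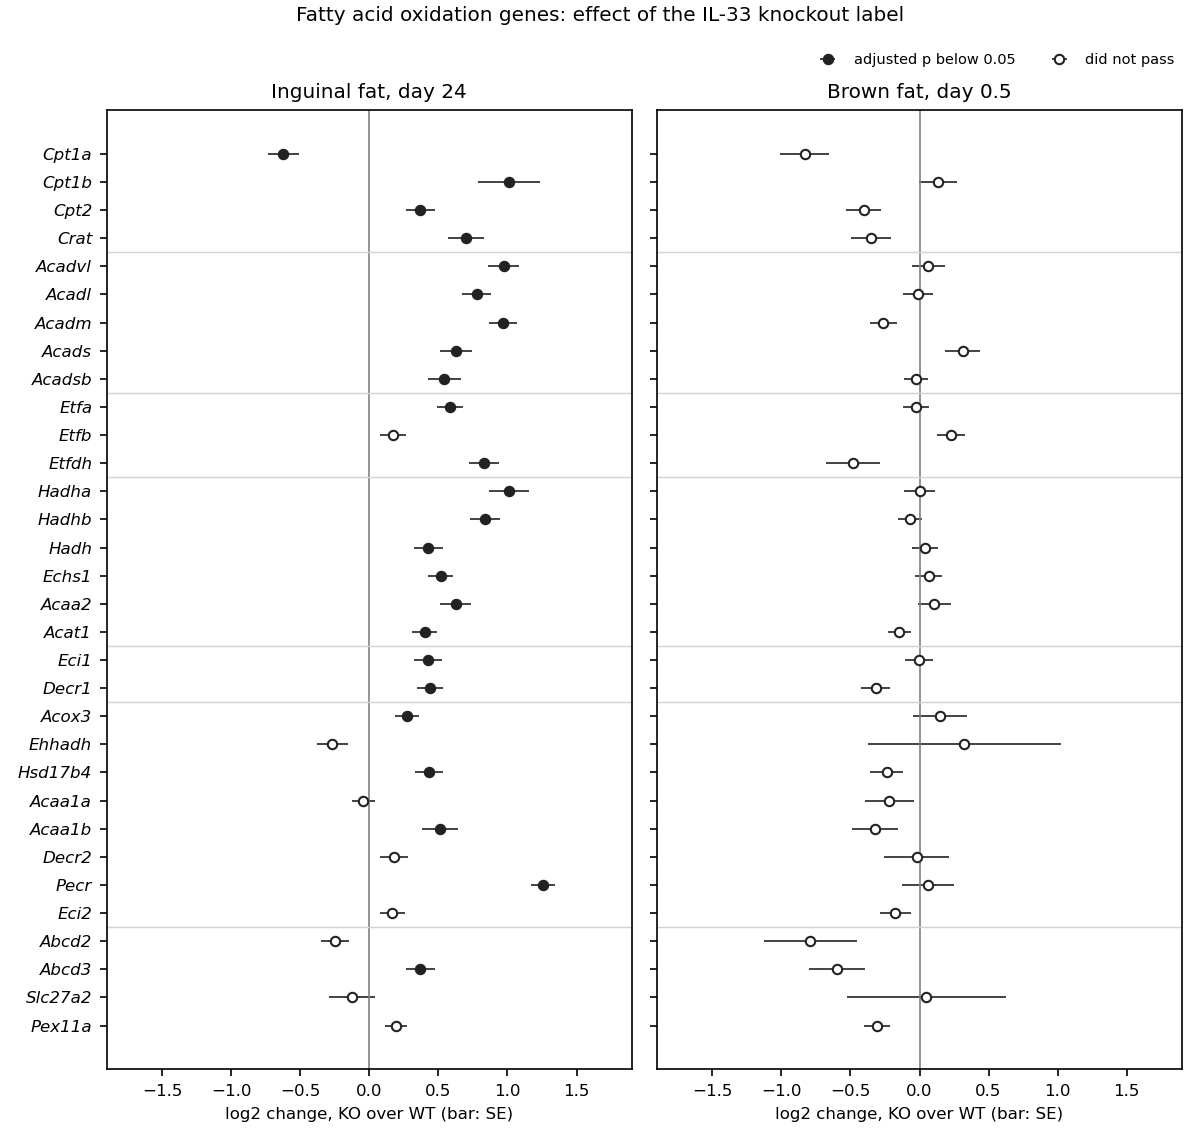
Log2 change of each of the 32 genes, KO over WT, in inguinal tissue at day 24 and brown tissue at day 0.5 (x axis; bars are the standard error), grouped by role from the carnitine shuttle at the top to peroxisomal transport at the bottom. Filled points passed at an edgeR adjusted p below 0.05: 24 of 32 in inguinal tissue, where Pecr stands farthest right at 1.26 and Cpt1a is the 1 filled point left of 0, and 0 of 32 in brown tissue.

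Genes of the carnitine shuttle split in inguinal tissue. Cpt1a, the isoform of the entry enzyme that dominates in liver, had 33.5, 29.6 and 24.7 CPM in KO libraries, against 43.8, 43.0, 45.9 and 49.1 CPM in WT libraries. All 3 KO libraries were below all 4 WT ones, and Cpt1a fell by 0.62 on the log2 scale (standard error, SE, 0.11, edgeR adjusted p = 0.00102). Cpt1b, the isoform of muscle and brown fat, had 17.4, 11.7 and 9.39 CPM in KO libraries, against 6.34, 7.58, 7.52 and 4.43 CPM in WT libraries. It rose by 1.01 (SE 0.23, edgeR adjusted p = 0.00606) with no overlap, although KO library 2 was well above the other KO libraries. Counts of Cpt1b were low for this gene set, the lowest being 197 in WT library 3. Its exons also overlap those of Gm44502, a gene on the same strand that shares 81.4% of them. Gm44502 is not among the counted identifiers, so reads of the pair cannot be told apart.

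Cpt2, the inner-membrane enzyme, had 554, 474 and 406 CPM in KO libraries, against 377, 371, 385 and 360 CPM in WT libraries. It rose by 0.37 (SE 0.11, edgeR adjusted p = 0.0187), the smallest rise in the shuttle. That call was lost without KO library 2 (edgeR adjusted p = 0.0655), KO library 3 (0.0531) or WT library 4 (0.0508), and with all 4 groups in 1 fit (0.0681). Crat, carnitine acetyltransferase, which moves acetyl groups between carnitine and coenzyme A, averaged 956 ± 174 CPM in KO (SD, n = 3) and 595 ± 73.7 CPM in WT libraries (n = 4) and rose by 0.70 (SE 0.13, edgeR adjusted p = 0.00158).

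All 5 acyl-CoA dehydrogenases, which begin each round on chains of different length, rose in inguinal KO tissue. Acadm, for medium chains, had 2091, 1994 and 1817 CPM in KO libraries, against 1053, 981, 1102 and 922 CPM in WT libraries. The groups were far apart, the log2 change being 0.97 (SE 0.10, edgeR adjusted p = 2.19e-05). Acadm is 95.3% identical over 469 bases to Gm5131, which is not among the counted identifiers, so some reads may be shared. Acadvl, for very long chains, had 740, 739 and 688 CPM in KO libraries, against 418, 367, 400 and 300 CPM in WT libraries, a rise of 0.97 (SE 0.11, edgeR adjusted p = 4.01e-05). The exons of Acadvl overlap those of Dvl2 on the opposite strand over 42.9% of their length. Dvl2 held 7476 counts in all libraries together and Acadvl 473474. The strand setting of counting is not given, so reads over the shared exons are uncertain and these counts do not settle the effect of the overlap. Acadl, for long chains, averaged 1777 ± 53.6 CPM in KO (SD, n = 3) and 1046 ± 124 CPM in WT libraries (n = 4), and rose by 0.78. Acads, for short chains, rose by 0.63 and Acadsb, for short branched chains that also arise from isoleucine, by 0.54 (edgeR adjusted p = 0.00139 and 0.00353). Acadsb had 285, 387 and 388 CPM in KO libraries, against 243, 273, 250 and 212 CPM in WT libraries, so KO library 2 lay close to the WT range.

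**Figure D2:**
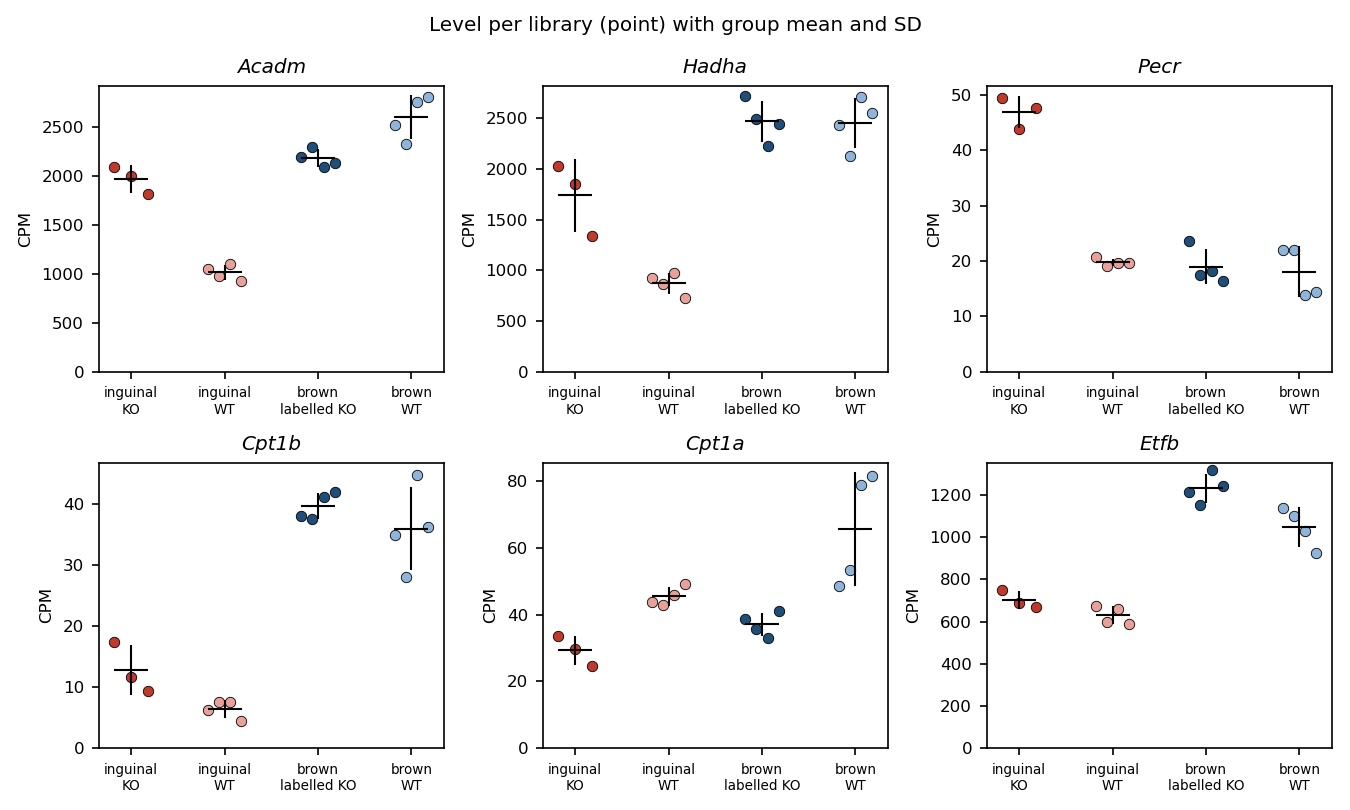
Level of 6 genes in CPM (y axes start at 0) in each of the 15 libraries, with horizontal lines at the group mean and vertical lines of 1 SD. In inguinal tissue the KO points lie above all WT points for Acadm, Hadha, Pecr and Cpt1b and below them for Cpt1a, while Etfb overlaps; Pecr stands at 43.8 to 49.3 CPM in inguinal KO and at 23.6 CPM or less in every other library.

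The middle steps of the round rose as well, with all 6 genes of the hydratase, hydroxyacyl dehydrogenase and thiolase steps called higher. Hadha and Hadhb encode the α and β subunits of the mitochondrial trifunctional protein, which carries out these steps on long chains. Hadha had 2033, 1856 and 1338 CPM in KO libraries, against 921, 866, 976 and 731 CPM in WT libraries. It rose by 1.01 (SE 0.14, edgeR adjusted p = 0.000218), with KO library 4 nearest to the WT range. Hadhb had 1425, 1691 and 1526 CPM in KO libraries, against 898, 912, 954 and 730 CPM in WT libraries, a rise of 0.84 (SE 0.11, edgeR adjusted p = 0.000109) with the groups well apart. The highest KO library was library 2 for Hadha and library 3 for Hadhb. Hadhb transcripts are 99.8% identical to Gm13910 over 1428 bases and 97.6% identical to Gm9108 over 1426 bases. Gm13910 held 101 counts in all libraries together and Gm9108 is not among the counted identifiers, so reads may be shared and Hadhb levels are uncertain. Acaa2, the mitochondrial thiolase for medium and long chains, rose by 0.63, Echs1, the short-chain hydratase, by 0.52, Hadh, the dehydrogenase for shorter chains, by 0.43 and Acat1, the acetoacetyl-CoA thiolase, by 0.40. Their edgeR adjusted p-values ran from 0.00117 to 0.00800. Auxiliary enzymes that prepare unsaturated chains rose by similar amounts, Decr1, a dienoyl-CoA reductase, by 0.44 and Eci1, an enoyl-CoA isomerase, by 0.43.

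Start regions were looked up for these genes in RefSeq (GRCm38.p6), as windows of 250 bases before to 50 bases after each start site, of which 25 of the 32 genes had an entry. Hadha and Hadhb are shown because they lie head to head on chromosome 5. The start sites of the pair are 273 bases apart, on opposite strands, and the windows share 228 bases. The windows of Echs1 and Etfa are shown because they hold a match to DR1, the direct repeat AGGTCANAGGTCA bound by PPAR and RXR receptors, searched on both strands with up to 2 mismatches and marked in capitals. Each is written 5′ to 3′ on the strand of its gene, Hadha from chr5:30154931-30155230 (minus strand), Hadhb from chr5:30155003-30155302 (plus strand), Echs1 from chr7:140116372-140116671 (minus strand) and Etfa from chr9:55512194-55512493 (minus strand).
Hadha: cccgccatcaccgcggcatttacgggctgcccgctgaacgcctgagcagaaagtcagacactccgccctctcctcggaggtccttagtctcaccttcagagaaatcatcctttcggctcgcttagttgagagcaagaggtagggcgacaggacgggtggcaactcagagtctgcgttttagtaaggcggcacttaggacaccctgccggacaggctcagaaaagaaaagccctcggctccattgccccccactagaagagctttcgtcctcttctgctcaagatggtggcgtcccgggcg
Hadhb: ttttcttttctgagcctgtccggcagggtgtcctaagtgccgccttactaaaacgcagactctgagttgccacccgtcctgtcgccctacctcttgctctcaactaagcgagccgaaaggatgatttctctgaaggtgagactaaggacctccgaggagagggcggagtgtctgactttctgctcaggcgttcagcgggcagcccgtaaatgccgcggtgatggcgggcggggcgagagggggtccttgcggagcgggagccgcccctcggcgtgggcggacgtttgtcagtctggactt
Echs1: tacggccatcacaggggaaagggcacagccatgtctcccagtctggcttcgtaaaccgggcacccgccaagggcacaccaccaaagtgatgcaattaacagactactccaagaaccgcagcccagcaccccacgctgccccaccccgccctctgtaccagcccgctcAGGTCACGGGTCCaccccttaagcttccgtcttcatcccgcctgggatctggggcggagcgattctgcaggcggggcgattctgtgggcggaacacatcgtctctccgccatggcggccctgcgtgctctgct
Etfa: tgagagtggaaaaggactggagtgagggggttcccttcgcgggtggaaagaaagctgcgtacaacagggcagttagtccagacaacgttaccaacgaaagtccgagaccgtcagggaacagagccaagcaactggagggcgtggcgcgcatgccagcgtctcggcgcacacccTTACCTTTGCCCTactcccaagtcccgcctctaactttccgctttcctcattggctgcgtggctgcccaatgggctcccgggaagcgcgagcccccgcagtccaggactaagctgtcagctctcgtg

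The Echs1 match begins at base -83 from the start site and reads forward, and the Etfa match begins at base -77 and reads on the other strand, each with 2 mismatches. DR1 matches were found in 7.69% of the 26 windows of these genes and in 3.86% of all 32851 windows of the same length. Of the 17 genes with a window that rose in inguinal KO tissue, 2 held a DR1 match, and of the 8 others 0 did. The receptor core AGGTCA, which overlaps DR1, was in 19.2% of the windows of these genes (Acadm, Acadvl, Cpt1a, Echs1 and Slc27a2) and in 16.3% of all windows. The estrogen-related receptor element TCAAGGTCA and the cyclic AMP response element TGACGTCA were in 0 of the 26 windows, against 0.423% and 1.79% of all windows. A match is a description of these letters only.

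Electron transfer genes rose in part. Etfdh, the oxidoreductase that hands electrons to ubiquinone, had 707, 709 and 589 CPM in KO libraries, against 399, 373, 422 and 325 CPM in WT libraries. It rose by 0.83 (SE 0.11, edgeR adjusted p = 0.000119) with a wide gap between the groups. Etfa, the α subunit of the flavoprotein, rose by 0.58 (SE 0.09, edgeR adjusted p = 0.000427). Etfb, the β subunit, had 750, 687 and 668 CPM in KO libraries, against 673, 598, 660 and 590 CPM in WT libraries. Its groups overlapped, and 0.17 on the log2 scale (SE 0.09) was no call (edgeR adjusted p = 0.200). Gm45233, annotated on the same strand in GENCODE M21, shares 53.0% of the exon bases of Etfb. It is not among the counted identifiers, so reads of the pair cannot be told apart. Over the mitochondrial set as a whole, 18 of 20 genes rose and 1 fell, with a median log2 change of 0.61.

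Peroxisomal genes were divided in inguinal tissue: 5 of 12 rose, 0 fell and 7 did not pass, with a median log2 change of 0.18. Pecr, a peroxisomal enoyl-CoA reductase that works in chain elongation, had the largest change of the 32. It had 49.3, 43.8 and 47.6 CPM in KO libraries, against 20.6, 19.1, 19.7 and 19.7 CPM in WT libraries. The WT libraries were nearly level and the KO libraries all more than 2 times higher, the log2 change being 1.26 (SE 0.09, edgeR adjusted p = 8.82e-07). Acaa1b, a peroxisomal thiolase, rose by 0.51 (SE 0.13, edgeR adjusted p = 0.0106), a call lost without KO library 2 (edgeR adjusted p = 0.0519). Its close relative Acaa1a had 130, 117 and 127 CPM in KO libraries, against 138, 126, 129 and 125 CPM in WT libraries, and did not pass (log2 change -0.04, edgeR adjusted p = 0.745). The transcripts of these thiolases are 96.6% identical over 1428 bases, so reads may be shared between them and both values are uncertain.

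Hsd17b4, the multifunctional enzyme for branched and very long chains, rose by 0.43 (SE 0.10, edgeR adjusted p = 0.00546). Abcd3, a peroxisomal importer of acyl-CoA, had 305, 396 and 290 CPM in KO libraries, against 258, 259, 264 and 251 CPM in WT libraries. The KO libraries were higher but uneven. The rise of 0.37 (SE 0.11, edgeR adjusted p = 0.0184) was lost without KO library 3, the highest (log2 change 0.22, edgeR adjusted p = 0.110), and with all 4 groups in 1 fit (edgeR adjusted p = 0.209). Acox3, an oxidase of branched chains, had 81.1, 72.3 and 70.8 CPM in KO libraries, against 63.4, 62.8, 66.2 and 57.7 CPM in WT libraries, a rise of 0.27 (SE 0.09, edgeR adjusted p = 0.0322). It was the weakest call, lost in 8 of the 14 alternative settings, among them every leave-out of a library other than KO library 4 and WT library 3. Its adjusted p ran from 0.0199 to 0.341 over those settings (edgeR, DESeq2 and limma-voom).

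Among the peroxisomal genes that did not pass, Ehhadh, the bifunctional enzyme of straight chains, had 185, 197 and 158 CPM in KO libraries, against 224, 188, 252 and 212 CPM in WT libraries (log2 change -0.27, edgeR adjusted p = 0.0877). Abcd2, an importer of very long chains, had 442, 507 and 449 CPM in KO libraries, against 580, 613, 499 and 541 CPM in WT libraries (log2 change -0.25, edgeR adjusted p = 0.0768). In each, the highest KO library lay just above the lowest WT library. Abcd2 was called lower with a filter at 5 CPM (edgeR adjusted p = 0.0430) and with the DESeq2 Wald test (adjusted p = 0.0495). Pex11a, a membrane protein that takes part in peroxisome division, had 122, 123 and 122 CPM in KO libraries, against 110, 106, 104 and 112 CPM in WT libraries. Those groups did not overlap, yet the change was small at 0.19 (SE 0.08, edgeR adjusted p = 0.0833). It was called higher with the DESeq2 Wald test (adjusted p = 0.0454). Decr2, a dienoyl-CoA reductase, Eci2, an enoyl-CoA isomerase, and Slc27a2, a very long chain acyl-CoA synthetase, had log2 changes of 0.18, 0.17 and -0.13 and did not pass (edgeR adjusted p = 0.213, 0.173 and 0.612).

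Summed over their genes, mitochondrial levels were 18370, 18030 and 16180 CPM in KO libraries, against 11680, 11010, 12010 and 9764 CPM in WT libraries. Peroxisomal levels were 2006, 2117 and 1846 CPM in KO libraries, against 1922, 1871, 1891 and 1797 CPM in WT libraries. The mitochondrial sums did not overlap and the peroxisomal sums did. Abcd2, the largest part of each peroxisomal sum in CPM here, averaged 466 CPM in KO and 558 CPM in WT libraries. The overlap of the peroxisomal sums depends on Abcd2. CPM is not corrected for transcript length, so these sums give longer transcripts more weight, as do the peroxisomal shares in both tissues. Per kilobase of transcript, mean Abcd2 was below mean Hsd17b4, at 84.3 against 146 in KO and 101 against 109 in WT libraries. The peroxisomal share of the summed level of the 32 genes was 9.85%, 10.5% and 10.2% in KO libraries, against 14.1%, 14.5%, 13.6% and 15.6% in WT libraries.

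Markers of some other cell types also differed between the inguinal groups, where 15.3% of all genes were called higher and 13.3% lower. Of 16 skeletal muscle markers, 14 were lower in KO tissue, their summed level being 52.4 to 57.9 CPM in KO libraries, against 167 to 494 CPM in WT libraries, and Tnnc2 was at 0 counts in every KO library. Of 10 brown and beige adipocyte markers, 5 were higher and 0 lower, with a summed level of 3005 to 3798 CPM in KO libraries, against 1513 to 2281 CPM in WT libraries. Ucp1 had 2099, 2017 and 1621 CPM in KO libraries, against 602, 928, 1050 and 701 CPM in WT libraries (log2 change 1.24, edgeR adjusted p = 0.000382). General adipocyte markers were 3 higher and 1 lower of 10. Endothelial markers were 5 lower of 8 (894 to 974 CPM in KO, against 1037 to 1267 CPM in WT libraries), and B and T cell markers 1 lower of 13 (13.7 to 32.5 CPM in KO, against 21.2 to 35.4 CPM in WT libraries). Of 6 epithelial markers, summing to 0.942 to 1.27 CPM in KO and 3.14 to 9.85 CPM in WT libraries, 1 was tested and fell, and Krt5 was at 0 counts in KO. Macrophage and erythroid markers had 0 calls of 8 and 5. The part of these markers in the result was not tested.

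Genes of neighbouring steps that are not among the 32 were read from wider lists, beside 15.3% of all genes called higher and 13.3% lower. Of 14 other mitochondrial oxidation and carnitine genes, 8 rose in inguinal KO tissue and 0 fell, with a median log2 change of 0.39. Slc25a20, the carnitine-acylcarnitine carrier between CPT1 and CPT2, rose by 0.86, Hsd17b10, a mitochondrial hydroxyacyl-CoA dehydrogenase, by 0.70 and Mlycd, malonyl-CoA decarboxylase, by 0.60. Echdc1 was on that list and rose by 0.92, although it clears a by-product of acetyl-CoA carboxylase and is not itself a step of mitochondrial oxidation. Of 14 other peroxisomal oxidation genes 13 were tested and 6 rose, led by Acox2, an oxidase of branched chains and bile acid precursors, at 1.80. Acox2 was low, with 4.53, 3.97 and 2.88 CPM in KO libraries, against 1.01 to 1.22 CPM in WT libraries. Peroxisome biogenesis genes were called higher in 5 of 15, among them Pex7, an import receptor, by 0.42 and Pex26, which anchors the receptor-recycling machinery, by 0.39. Of 14 regulators, 8 rose and 1 fell. Ppard and Ppara, nuclear receptors that sense fatty acids, rose by 0.70 and 0.56, Lpin1, a phosphatidate phosphatase and coactivator, by 0.62, Esrra, the estrogen-related receptor α, by 0.59 and Sirt3, the mitochondrial deacetylase, by 0.58. Nrip1, a corepressor of oxidation genes named after its values were seen, fell by 0.35, and Ppargc1a, their coactivator, did not pass (0.32, edgeR adjusted p = 0.271; 0.54 and 0.0114 without WT library 3). Calls were lost without KO library 3 for Pex7, Pex26 and Ppara (edgeR adjusted p = 0.0572, 0.0558 and 0.0739), and without KO library 2 for Ppara and Nrip1 (0.158 and 0.0550). They were also lost for Nrip1 without KO library 4 (edgeR adjusted p = 0.0815) or WT library 2 or 4 (0.0564 and 0.0670), for Ppara without WT library 1 or 2 (0.0517 and 0.0519), and for Pex26 without WT library 4 (0.0515). With all 4 groups in 1 fit, Ppara, Lpin1, Nrip1, Mlycd and Pex26 did not pass (edgeR adjusted p = 0.0702 to 0.447).

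In newborn brown tissue 0 of the 32 genes passed, where 0.184% of 15796 genes were called higher and 0.076% lower. Without adjustment, 10 of the 32 had an edgeR p under 0.05, Acads with a positive change and Cpt1a, Cpt2, Crat, Acadm, Etfdh, Decr1, Abcd2, Abcd3 and Pex11a with a negative one. That threshold was loose, since an edgeR p of 0.0503, that of Etfb, had an adjusted p of 0.270. The share of all genes under it is not given, so the count alone is no result about the 32. The median log2 change was -0.02 for the 32 genes, or -0.10 to -0.04 with 1 library left out, and 0.01 for all genes. Every labelled KO library lay below every WT library in 5 genes (Cpt1a, Pex11a, Acadm, Decr1 and Acat1), as in 4.86% of all genes, and above in 1, Etfb, as in 4.88%. Brown calls depended on labelled KO library 1 and on the test. Without that library, 4 of the 32 were lower, Abcd2 (log2 change -1.21, edgeR adjusted p = 0.0147), Cpt1a (-0.85, 0.0208), Cpt2 (-0.46, 0.0305) and Pex11a (-0.33, 0.0352), beside 8.41% of all genes. With limma-voom 6 were lower, those 4 with Acadm and Decr1, beside 9.55% of all genes. The DESeq2 Wald test called 2 lower, Cpt1a and Pex11a, beside 2.55%, and a fit of all 4 groups called 4 lower, Cpt1a, Pex11a, Abcd3 and Cpt2, beside 2.67%. These 4 settings called 0 of the 32 higher.

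Cpt1a had the smallest brown p of the 32. It had 38.7, 35.6, 33.1 and 41.0 CPM in labelled KO libraries, against 48.7, 53.2, 78.8 and 81.5 CPM in WT libraries. The groups did not overlap, with WT libraries 3 and 4 far above WT libraries 1 and 2, and the log2 change was -0.83 (SE 0.18, edgeR adjusted p = 0.0778). Pex11a had 102, 89.5, 108 and 88.0 CPM in labelled KO libraries, against 118, 118, 122 and 119 CPM in WT libraries (log2 change -0.31, SE 0.10, edgeR adjusted p = 0.150). Acadm had 2196, 2297, 2093 and 2126 CPM in labelled KO libraries, against 2513, 2326, 2748 and 2808 CPM in WT libraries (log2 change -0.26, edgeR adjusted p = 0.202), and WT library 2 came close to the labelled KO range. Etfdh had 1054, 1157, 1009 and 1144 CPM in labelled KO libraries, against 1229, 1048, 1929 and 1850 CPM in WT libraries. Here too WT libraries 3 and 4 were the high ones, as they were for Crat, Abcd3, Hsd17b4 and Ehhadh. The trifunctional pair lay close in both groups, Hadha at 2472 ± 200 CPM in labelled KO and 2458 ± 247 CPM in WT libraries and Hadhb at 1871 ± 76.4 CPM in labelled KO and 1951 ± 76.1 CPM in WT libraries (SD, n = 4 each).

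Some peroxisomal genes varied widely between the brown libraries. Ehhadh had 70.7, 891, 383 and 1138 CPM in labelled KO libraries, against 266, 298, 768 and 637 CPM in WT libraries. Slc27a2 had 24.7, 268, 157 and 243 CPM in labelled KO libraries, against 132, 108, 226 and 199 CPM in WT libraries. Labelled KO library 1 was the lowest of the 8 in both genes, and labelled KO libraries 2 and 4 were the highest. The SE of their log2 changes, 0.70 and 0.58, exceeded the changes of 0.33 and 0.05. Decr2 was also lowest in labelled KO library 1, with 53.0, 101, 108 and 98.9 CPM in labelled KO libraries, against 76.3, 73.2, 117 and 97.9 CPM in WT libraries. Abcd2 ran the other way, with 51.6, 27.7, 23.0 and 15.4 CPM in labelled KO libraries, against 34.6, 51.7, 51.9 and 63.9 CPM in WT libraries. Labelled KO library 1 lay inside the WT range of Abcd2 and the other 3 below it (log2 change -0.79, SE 0.34, edgeR adjusted p = 0.252). The peroxisomal share of the summed level of the 32 genes was 4.47%, 8.46%, 6.67% and 9.28% in labelled KO libraries, against 5.89%, 6.34%, 8.89% and 8.44% in WT libraries.

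**Figure D3:**
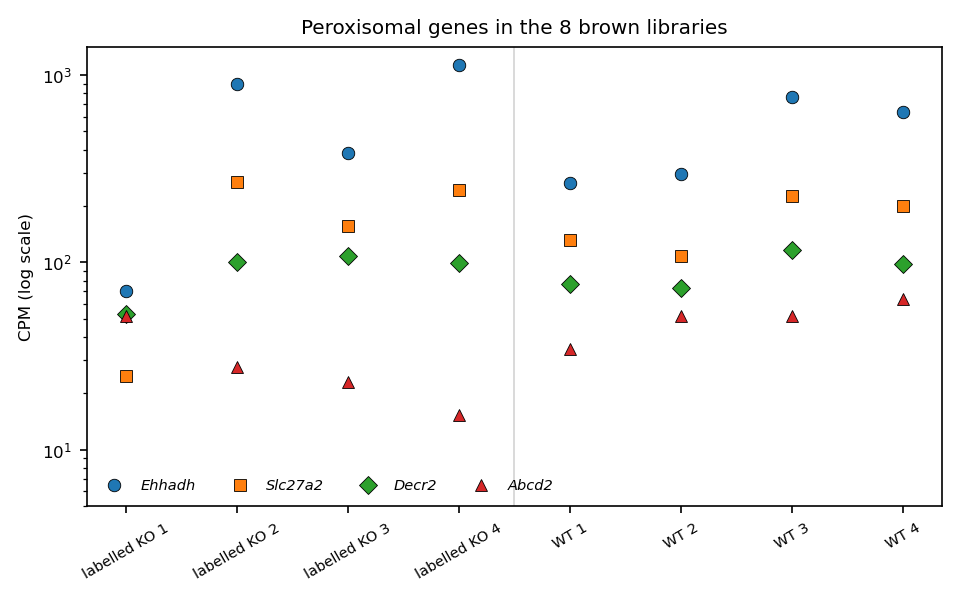
Level of Ehhadh, Slc27a2, Decr2 and Abcd2 (CPM, log axis) in each of the 8 brown libraries, 4 labelled KO on the left and 4 WT on the right. Ehhadh runs from 70.7 CPM in labelled KO library 1 to 1138 CPM in labelled KO library 4, a wider range than in WT libraries, while Abcd2 is highest in labelled KO library 1 within its group.

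Of the regulators in brown tissue, 2 of 14 rose, Ppard by 0.75 (edgeR adjusted p = 0.0429) and Klf15, a metabolic transcription factor named after its values were seen, by 2.54 (edgeR adjusted p = 0.0445). Neither call was firm: without labelled KO library 2, 3 or 4 or WT library 2, 3 or 4 both were lost, and that of Klf15 without WT library 1 too (edgeR adjusted p = 0.0754 to 0.159). In the lists of other oxidation genes and of peroxisome biogenesis 0 passed. Brown and beige markers summed to 4236 to 7328 CPM in labelled KO and 5838 to 10080 CPM in WT libraries, and muscle markers to 2837 to 5081 CPM in labelled KO and 2993 to 5113 CPM in WT libraries, with 0 calls in either list. Epithelial markers summed to 76.2 CPM in labelled KO library 4 and to 1.56 CPM or less in the other brown libraries. Their part in the levels of the 32 genes was not tested.

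The KO effect was more positive in inguinal than in brown tissue for 18 of the 32 genes and more negative for 0, by the edgeR test of the difference itself over all 15 libraries. Over 16858 genes, 4.8% had a more positive and 4.2% a more negative effect in inguinal tissue. The median difference was 0.54 on the log2 scale for the 32 genes and -0.07 for all genes. Il33 itself fell further in inguinal KO than in brown labelled KO tissue (difference -2.65, SE 0.66, edgeR adjusted p = 0.0218). The part of this in the differences was not tested. Mitochondrial genes made up 13 of the 18 and peroxisomal genes 5. The largest differences were those of Etfdh (1.29, SE 0.24, edgeR adjusted p = 0.00463), Acadm (1.21, SE 0.13, edgeR adjusted p = 0.000108), Pecr (1.18, SE 0.22, edgeR adjusted p = 0.00512) and Crat (1.03, SE 0.21, edgeR adjusted p = 0.00733). For Etfdh, Acadm and Crat the inguinal change was positive and the brown one, which did not pass, negative. Cpt1a had a negative change in both depots, called in inguinal tissue only, and the difference of its effects did not pass (0.19, SE 0.22, edgeR adjusted p = 0.635). Calls of Echs1, Acadsb, Acaa1b and Abcd3 were the least firm of the 18, lost in 16, 12, 6 and 6 of 21 alternative settings (highest edgeR adjusted p for Acadsb, Acaa1b and Abcd3 0.109, 0.0615 and 0.0929). Those of Hsd17b4 and Pex11a were lost without inguinal KO library 3 (edgeR adjusted p = 0.0572 and 0.0506), and that of Hsd17b4 without inguinal KO library 2 (0.0543). The number of members of the set with a more positive inguinal effect was 13 to 21 over all settings, the lowest without inguinal KO library 3.

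The ratio of Cpt1b to Cpt1a counts within a library needs no scaling between libraries. On the log2 scale it was -0.95, -1.33 and -1.40 in inguinal KO libraries, against -2.79, -2.50, -2.61 and -3.47 in inguinal WT libraries. The groups did not overlap, and the means differed by 1.61 (KO -1.23 ± 0.24, n = 3, WT -2.84 ± 0.43, SD, n = 4). A two-sided exact permutation test gave p = 0.0571, the smallest that 3 against 4 libraries allow. That outcome was fixed by the levels given above, where every KO library was higher in Cpt1b and lower in Cpt1a. The inguinal ratio test is therefore no separate result. In brown tissue the ratio was -0.02, 0.08, 0.32 and 0.04 in labelled KO libraries, against -0.48, -0.92, -0.81 and -1.17 in WT libraries. Those groups did not overlap either, the means differing by 0.95 (labelled KO 0.10 ± 0.15, WT -0.84 ± 0.29, SD, n = 4 each), with an exact p of 0.0286, the smallest that 4 against 4 allow. Adjusted for 2 tests by Benjamini-Hochberg, both p-values were 0.0571. Labelled KO library 1 had the lowest ratio of its group, at -0.02, and lay above every brown WT library. In inguinal tissue both genes were called, in opposite directions, while in brown tissue Cpt1b had a log2 change of 0.13 (edgeR adjusted p = 0.646). Brown Cpt1a had a log2 change of -0.83, which did not pass, so the brown ratio mostly restates that change.

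**Figure D4:**
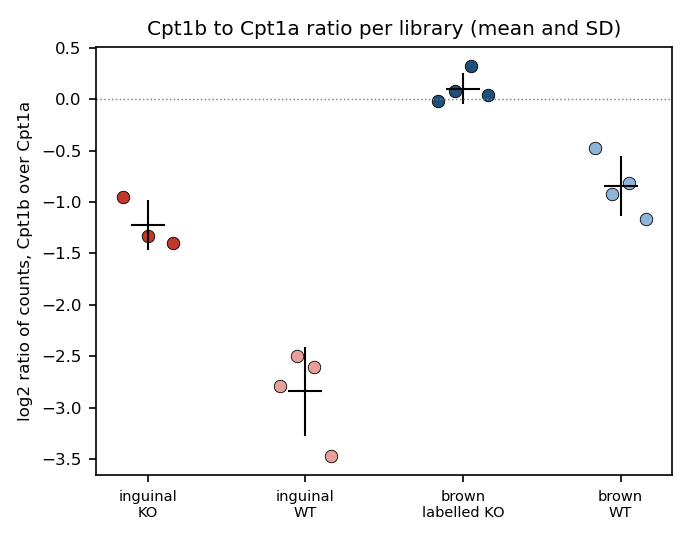
Log2 ratio of Cpt1b to Cpt1a counts in each library, with lines at the group mean and bars of 1 SD; the dotted line at 0 marks equal counts. The KO points lie above the WT points of the same depot in both tissues, at -1.40 to -0.95 in KO against -3.47 to -2.50 in WT inguinal libraries and at -0.02 to 0.32 in labelled KO against -1.17 to -0.48 in WT brown libraries.

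In WT mice, most oxidation genes were lower in inguinal than in brown tissue. Of the 32 genes 24 were lower, 5 were higher and 3 (Hsd17b4, Pecr and Pex11a) did not pass, where 30.7% of all genes were called higher and 30.7% lower. The median log2 difference was -0.84 for the 32 genes and -0.01 for all genes. Mitochondrial genes were lower in 18 of 20, among them Cpt1b at -2.49, Acadl at -1.76 and Acadvl at -1.64 on the log2 scale. Peroxisomal genes were lower in 6 of 12, with Slc27a2 at -2.31 and Decr2 at -1.36. Calls were lost for Cpt1a (-0.53) without inguinal WT library 2 (edgeR adjusted p = 0.0576), and for Ehhadh (-1.17) without brown WT library 3 or 4 or inguinal WT library 1, 2 or 4 (edgeR adjusted p = 0.0510 to 0.0629). Genes higher in inguinal tissue were Abcd2 (3.46, SE 0.17, edgeR adjusted p = 9.33e-08), Acaa1b (2.12, SE 0.16, edgeR adjusted p = 6.45e-07), Acaa1a (0.46), Acadsb (0.44) and Cpt2 (0.40). Abcd2 averaged 558 ± 49.1 CPM in inguinal and 50.5 ± 12.1 CPM in brown WT libraries (SD, n = 4 each). Other markers differed in the same libraries. In inguinal tissue 9 of 10 general adipocyte and 12 of 13 B and T cell markers were higher, while 6 of 10 brown and beige markers were lower. Of 16 muscle markers 13 were lower and 2 higher, 5 of 8 macrophage markers were higher, and 5 of 8 endothelial markers were lower. Muscle markers summed to 167 to 494 CPM in inguinal and 2993 to 5113 CPM in brown tissue. Their part in the result was not tested.

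Levels can be compared between genes only per length of transcript, taken here from the longest principal transcript of GENCODE M21, so the order is approximate. In inguinal WT tissue Etfb led with 705 ± 47.4 CPM per kilobase, followed by Acaa2 (564 ± 63.9), Acadl (546 ± 65.0) and Acadm (496 ± 38.7), which did not differ beyond their SD (n = 4). In brown WT tissue Acadl led with 1849 ± 64.2 CPM per kilobase, followed by Acaa2 (1560 ± 212), Etfa (1440 ± 67.8), Acadm (1270 ± 108) and Etfb (1173 ± 105). Neighbours in that order overlapped within their SD, other than Acadl over Acaa2. Cpt1b was the lowest of the 32 in inguinal WT tissue at 2.23 ± 0.51 CPM per kilobase, and Acaa1b in brown WT tissue at 5.31 ± 0.85, with Abcd2 next at 9.13 ± 2.18 (n = 4).

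**Figure D5:**
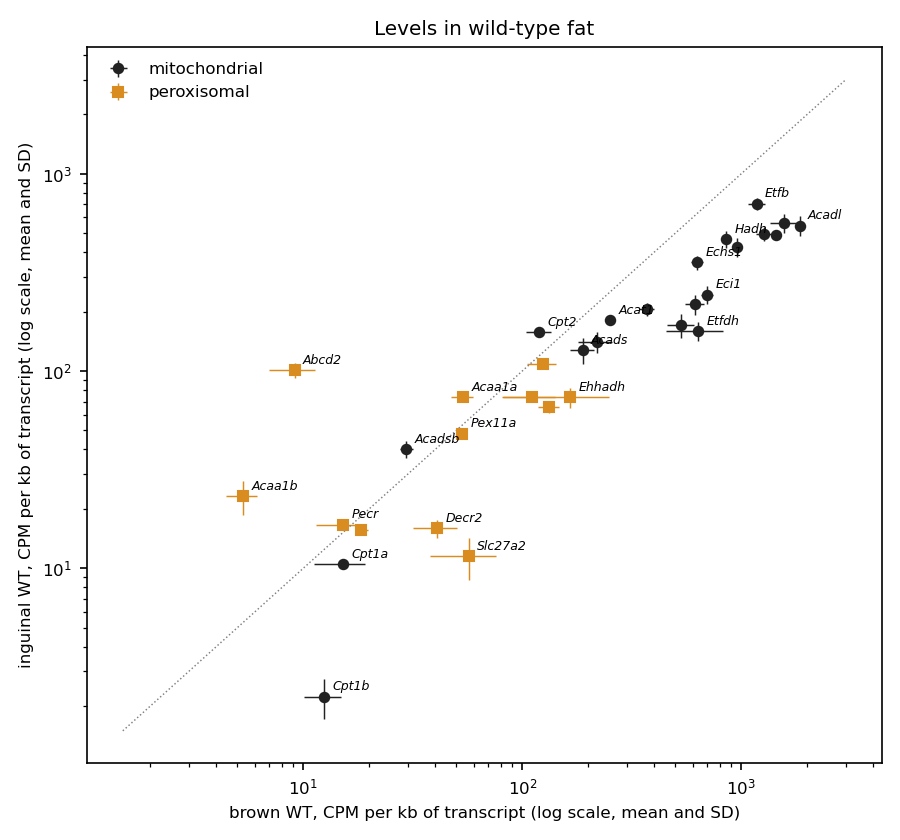
Mean level per kilobase of transcript of the 32 genes in inguinal WT (y axis) and brown WT libraries (x axis), both on log scales in CPM per kilobase with bars of 1 SD (n = 4 each); the dotted line marks equal levels and not all genes are named. Most mitochondrial genes (circles) lie below the line, while Abcd2 and Acaa1b (squares) stand far above it, Abcd2 at 101 in inguinal and 9.13 in brown tissue.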

How the data were processed

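The labels' protocols name TRIsure with a spin-column kit for RNA and the Illumina TruSeq stranded mRNA kit for libraries. Per the submitters' processing notes, TopHat2 2.1.0, Subread featureCounts, edgeR and the mm9 build were used; the sources used here give neither the annotation nor the strand setting of counting, so reads of overlapping genes on opposite strands are uncertain. The authors deposited raw counts for each gene, with no normalization by the authors.

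Of 37991 Ensembl identifiers, 32919 matched a symbol in GENCODE M21, which is of another build and served for names, transcript lengths and overlaps only. Fits used only the libraries compared (all 15 for the difference of effects) in R 4.3.3 with edgeR 4.0.16: filterByExpr with a minimum count of 10, TMM scaling, robust quasi-likelihood F-test, Benjamini-Hochberg over all genes, threshold 0.05. SE is the absolute log2 change over the square root of F. The steps were also run on simulated counts, drawn without an outlying library such as brown labelled KO library 1. Their outcome is not reported here and is not used to judge any call. Printed CPM values use 1 TMM scaling over the 16858 genes kept in all 15 libraries, while log2 changes come from each fit. The ratio of Cpt1b to Cpt1a had 0.5 added to each count. Alike transcripts were found with blastn 2.17.0.

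The 32 genes and the wider lists were chosen with earlier results of these data known. All 32 may be named. Other named genes are Il33, Ucp1, Ppara and Ppargc1a, and up to 4 genes of each pathway list past the threshold in inguinal tissue by smallest p, named in part; a few results of the wider lists are not reported here. Markers are given as sums, counts and genes at 0. Alternatives were DESeq2 1.42.0 size factors and Wald test, no filter, a filter at 5 CPM, limma-voom (limma 3.58.1) with quality weights, 1 fit of all 4 groups, a replicate block, and each library left out. No libraries of a group were alike within sampling noise (lowest chi-square per degree of freedom 14.7).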

Additional observations from a re-analysis of the deposited data

Results flagged for a closer look

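In 96 groups of 4 libraries, 2 held a library far from the other 3, where chance gives about 1 in 20. Acadvl was low in brown WT library 2, at 912 CPM beside 1215 to 1242 CPM in the other WT libraries. Decr2 was low in brown labelled KO library 1, at 53.0 CPM beside 98.9 to 108 CPM in the other labelled KO libraries.

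The KO effect was more positive in inguinal than in brown tissue for 18 genes by the test of the difference (edgeR adjusted p below 0.05). The log2 differences were 1.29 for Etfdh, 1.21 for Acadm, 1.18 for Pecr, 1.03 for Crat, 0.99 for Hadha, 0.94 for Abcd3, 0.89 for Acadvl, 0.89 for Hadhb, 0.81 for Acaa1b, 0.77 for Acadl, 0.75 for Cpt2 and 0.74 for Decr1. They were 0.65 for Hsd17b4, 0.59 for Etfa, 0.55 for Acadsb, 0.52 for Acat1, 0.48 for Pex11a and 0.43 for Echs1. Tissue and age differ together in this contrast and cannot be told apart. The change of Il33 itself was also more negative in inguinal tissue (difference -2.65).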

How the results depend on the processing

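In inguinal tissue 20 to 24 of the 32 genes were higher under every setting run, and 1 was lower (2 with the filter at 5 CPM and with the DESeq2 Wald test, which added Abcd2). The DESeq2 Wald test also called Pex11a higher. Calls were lost in at least 1 setting for Acox3, Cpt2, Abcd3 and Acaa1b, and the other 20 calls held in all. Over all genes, 4498 passed in inguinal tissue, 2249 with all 4 groups in 1 fit. In brown tissue 41 genes passed, 67 with no filter, 1151 with all 4 groups in 1 fit, 3127 with limma-voom, 1032 with the DESeq2 Wald test, and 2 to 2905 with 1 library left out. Of the 32 genes, those called lower in brown tissue numbered 6 with limma-voom, 2 with the DESeq2 Wald test, 4 with all 4 groups, and 0 to 4 with 1 library left out. For the difference of effects 1517 genes passed, 3696 with limma-voom, 2351 with the DESeq2 Wald test and 632 to 3571 with 1 library left out. Signs also turned in some genes that were not called. In brown tissue Eci1 was 0.00074 with DESeq2 size factors, 0.0021 with all 4 groups, 0.027 with limma-voom and 0.00073 with the DESeq2 Wald test. Hadha was -0.0046 with the filter at 5 CPM and -0.046 with limma-voom, which gave 0.052 for Acadl, -0.0035 for Hadh and 0.087 for Decr2. With 1 library left out, brown values ran from -0.068 to 0.053 for Acadl, -0.035 to 0.11 for Acadvl, -0.054 to 0.020 for Acadsb, -0.066 to 0.057 for Hadha, -0.018 to 0.078 for Hadh, -0.044 to 0.017 for Etfa, -0.0029 to 0.33 for Acox3, -0.14 to 0.70 for Ehhadh, -0.045 to 0.057 for Eci1, -0.12 to 0.16 for Decr2, -0.060 to 0.17 for Pecr, -0.23 to 0.41 for Slc27a2, -0.87 to 0.0056 for Ppara and -0.40 to 0.077 for Ppargc1a. In inguinal tissue they ran from -0.077 to 0.0028 for Acaa1a and -0.26 to 0.0075 for Slc27a2. For the difference they ran from -0.061 to 0.26 for Acox3 (-0.066 with limma-voom) and -0.55 to 0.089 for Slc27a2. Over all genes, same-numbered libraries of KO and WT had correlations of -0.07 to 0.14, so the numbers were not taken as pairs, although brown muscle marker sums lay close by number. With the replicate block 7 genes passed in brown tissue, where the median log2 change of the 32 was -0.10, 22 of the 32 were higher in inguinal tissue and 17 had a more positive inguinal effect, and brown Ehhadh was -0.13 and Slc27a2 -0.30. The cause of these moves was not tested.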

Other observations

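In brown tissue, muscle marker sums of libraries with the same number lay close together: 5081 CPM in labelled KO and 5113 CPM in WT library 1, 3833 CPM in labelled KO and 4065 CPM in WT library 2, 2837 CPM in labelled KO and 2993 CPM in WT library 3, and 3363 CPM in labelled KO and 3453 CPM in WT library 4. Over all genes the correlations of the same-numbered brown libraries were 0.08, -0.04, 0.14 and 0.07 for numbers 1 to 4.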
